A study of Homo sapiens with 15 samples.

Results

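HS2 is a nuclease-hypersensitive enhancer of the beta-globin locus control region, and the comparison of dCas9-KRAB with dCas9 under the guide RNA (gRNA) Cr10 asks what the KRAB domain adds at that site and elsewhere once the same gRNA is present. It uses 6 of the 15 libraries of the series: 3 from K562 cells transduced with dCas9-KRAB and Cr10, and 3 from K562 cells transduced with dCas9 and Cr10, chosen by their titles. K562 is a human erythroleukemia line that transcribes embryonic and fetal globin genes. All 6 cultures were stably transduced with lentivirus, selected with puromycin and carried a gRNA aimed at HS2, so the KRAB domain was the designed difference. Nuclei were digested with nuclease, and for each library there is a separate list of peaks, the places where fragments pile up above the local background. The other 9 libraries (3 of dCas9-KRAB plus the gRNA Cr4, 3 of dCas9 plus Cr4, and 3 whose titles give dCas9-KRAB and no gRNA) served only to estimate the spread and to place the values. For the last 3 the design text and titles give no gRNA, while their gRNA label names the HS2 enhancer; they are called the libraries titled without a gRNA. Transduction in triplicate is stated for dCas9-KRAB with gRNA, but not what separates the numbered libraries of each group, so p-values measure only how these samples scatter, and that scatter may be technical.

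The locus control region is a row of hypersensitive sites, HS1 to HS5, upstream of the embryonic gene HBE1. HS2 and HS3 are its strongest enhancers and are bound by erythroid factors such as GATA1 and NFE2. Catalytically dead Cas9 (dCas9) binds DNA through its gRNA without cutting. The KRAB domain recruits the co-repressor TRIM28, which in turn brings the histone methyltransferase SETDB1 and HP1 proteins that are known for compact chromatin.

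The lists differed more within the dCas9 group than between the groups. They held 60522, 67779 and 70093 peaks with dCas9-KRAB and 53147, 67341 and 94777 peaks with dCas9, in replicate order. The mean was 66131 ± 4994 (SD, n = 3) against 71755 ± 21163 (two-sided exact permutation p = 0.9, and 3 against 3 cannot go below 0.1). The background implied for the median peak, a stand-in for sequencing depth, was 6.06, 5.82 and 5.56 fragments with dCas9-KRAB and 4.24, 6.90 and 9.78 with dCas9. Replicate 1 of dCas9 was thus the shallowest and replicate 3 the deepest of the 6, while the dCas9-KRAB libraries were alike. After all lists were shortened to their 53098 strongest peaks, pairs of dCas9-KRAB lists shared on average 0.70 of the bases covered by either (Jaccard index, 3 pairs), pairs of dCas9 lists 0.653 (3 pairs), and mixed pairs 0.693 (9 pairs).

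Cells were checked against windows set at recalled hg19 positions, which were not compared with an annotation. Promoter windows of the erythroid factors GATA1, TAL1, KLF1 and NFE2, of the globin genes HBG1, HBG2 and HBZ, and the alpha-globin enhancer held a peak in all 6 lists. The windows at CD3E, MS4A1, ALB and MYOD1, genes of T cells, B cells, liver and muscle, held a peak in 0 of the 6.

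HS2 kept a called peak in all 6 lists, but that peak was smaller in every library with dCas9-KRAB. The summit pileup, the number of overlapping fragments at the highest point implied by the authors' fold and p columns, was 66, 44 and 53 with dCas9-KRAB in replicate order. With dCas9 it was 81, 99 and 160. The groups did not overlap, and the lowest dCas9 value came from the shallowest library of the 6. The local background at HS2 was 8.60, 8.30 and 8.32 with dCas9-KRAB and 8.06, 7.56 and 20.5 with dCas9, so that only replicate 3 of dCas9 stood on a higher background.

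Each library was then centred by subtracting its median of log2(pileup + 1) over the 38888 regions that held a peak in all 15 lists. On this scale HS2 stood at 0.11, −0.64 and −0.35 with dCas9-KRAB and at 0.87, 0.36 and 0.47 with dCas9, where 0 is a typical shared peak. Centring matches the medians only, and the part of depth that remains was not tested. HS2 was therefore 1.82, 1.28 and 1.39 times a typical peak in the dCas9 libraries, and 1.08, 0.643 and 0.783 times a typical peak in the dCas9-KRAB libraries. The difference of means was −0.86 in log2 (SE 0.19, limma 95% interval −1.25 to −0.47), a ratio of 0.551 (0.421 to 0.723). The exact permutation test gave p = 0.1, the smallest that 3 against 3 allows. Limma's adjusted p over all 38888 regions was 1.00 and its unadjusted p was 0.000127. All 3 dCas9-KRAB libraries lay below all 3 dCas9 libraries at 2.13% of shared regions, and above them at 2.42%. In bulk material, a smaller opening in all cells and a lost opening in part of them cannot be told apart.

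**Figure D1:**
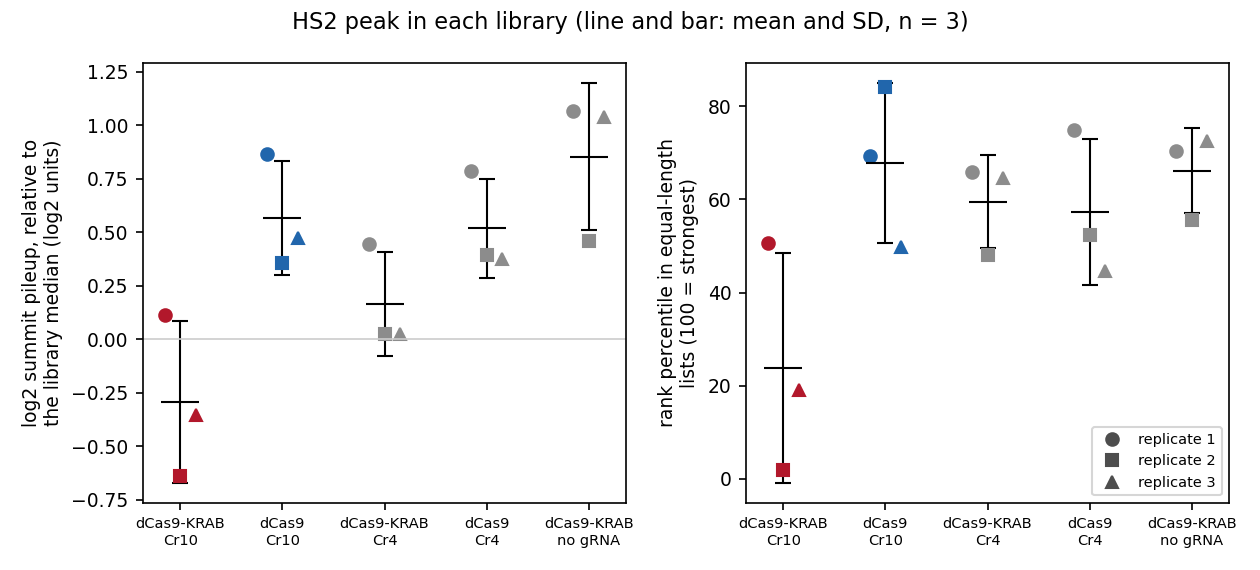
HS2 in each of the 15 libraries, as log2 summit pileup relative to the library median (left, log2 units) and as rank percentile in lists of equal length (right, 100 is the strongest peak); points are libraries, lines and bars are mean and SD (n = 3). The dCas9-KRAB Cr10 libraries lie at 0.11, −0.64 and −0.35 on the left, below the dCas9 Cr10 libraries at 0.87, 0.36 and 0.47, while on the right the groups touch at 50.6 and 49.9.

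By p-value and by size HS2 headed the comparison of summit pileup. Of the 38888 shared regions it had the lowest limma p and the most negative difference, and 0 regions had an increase as large. Its place by p was not independent of single libraries: it was 3rd without dCas9 replicate 3 (−0.91) and 31st without dCas9-KRAB replicate 2 (−0.69), and 1st without each of the other 4 libraries. Nor was it independent of the measure and the fit. It was 5th on the log2 of the authors' fold (−0.71) and 2nd without a mean-variance trend, and 1st under the other settings tried. Of 5 classes of shared regions by mean centred pileup over all 15 libraries, HS2 was in the fourth from the weakest (7777 regions). There the median difference was 0.01, with 55 regions wholly lower and 275 wholly higher with dCas9-KRAB. In the weakest class 331 regions were wholly lower and 62 wholly higher. The part of strength in the difference at HS2 was not tested.

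**Figure D2:**
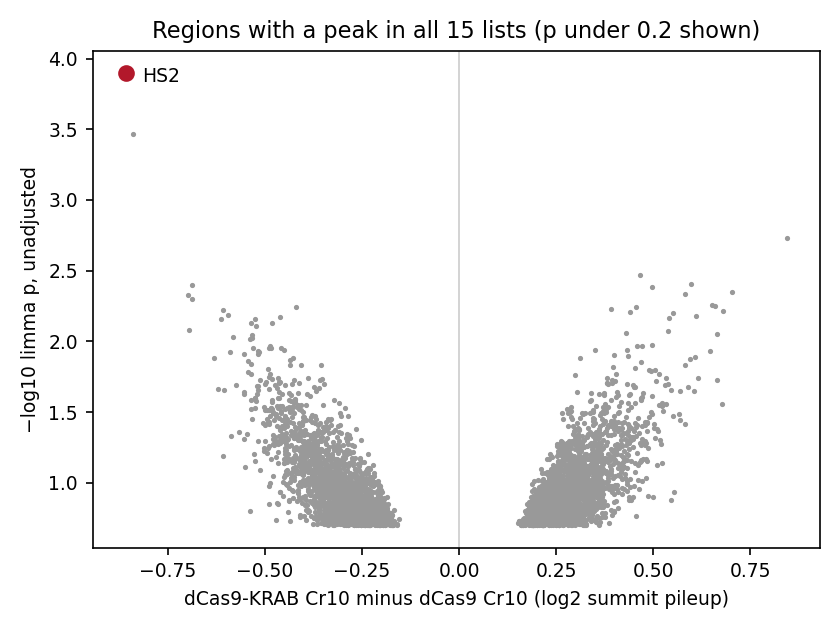
Difference in log2 summit pileup between dCas9-KRAB Cr10 and dCas9 Cr10 (x) against the −log10 of limma's unadjusted p (y) for shared regions with p under 0.2. HS2, in red, stands at −0.86 at the upper left, followed by a region on chromosome 14 at −0.84; 0 of 38888 regions passed the adjusted threshold.

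The place of HS2 within each list was more scattered. In the deposited lists, ranked by fold, HS2 was number 26228 of 60469, 52069 of 67704 and 43010 of 70021 peaks on the autosomes and X with dCas9-KRAB. It was number 16322 of 53098, 8386 of 67274 and 26617 of 94677 with dCas9. These lists differ in length, and the rank numbers of the groups overlapped (exact permutation p = 0.2). The fold over background itself was 6.98, 4.84 and 5.79 with dCas9-KRAB and 9.05, 11.7 and 7.49 with dCas9 (two-sided exact permutation p = 0.1), again without overlap. In lists of equal length the rank percentile was 50.6, 1.94 and 19 against 69.3, 84.2 and 49.9, and replicate 1 of dCas9-KRAB and replicate 3 of dCas9 overlapped. The difference of −43.9 points (SE 12.1) had an exact permutation p of 0.2 and a limma adjusted p of 1.00 over 62858 regions, of which HS2 was 31st by p. That place ranged from 7th without dCas9-KRAB replicate 1 to 507th without dCas9 replicate 2 and 1015th without dCas9-KRAB replicate 2, with differences of −57.3, −35.7 and −33.0 points. It was 648th in a fit of the 6 libraries alone and 2nd when peaks were ranked by the p column.

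The called HS2 peak also ended somewhat earlier on the side towards HS3. Its full width was 408, 383 and 370 bp with dCas9-KRAB and 422, 444 and 397 bp with dCas9. The widths of the groups overlapped (exact permutation p = 0.2). In hg19 on chromosome 11 the peak ended at 5302173, 5302181 and 5302162 with dCas9-KRAB and at 5302196, 5302212 and 5302188 with dCas9. The right edges did not overlap, with a mean difference of −26.7 bp (exact permutation p = 0.1). Its starts, 5301766, 5301799 and 5301793 against 5301775, 5301769 and 5301792, overlapped. The summit lay at 5301940, 5301912 and 5301990 with dCas9-KRAB and at 5301991, 5302013 and 5301993 with dCas9. From the median summit of the 15 libraries these lay −52, −80 and −2 bp away with dCas9-KRAB and −1, 21 and 1 bp with dCas9 (exact permutation p = 0.1). Replicates 1 and 2 of dCas9-KRAB stood apart, whereas replicate 3 was next to the dCas9 summits. With dCas9 and Cr4, 2 of the 3 summits lay at −51 and −67 bp, and right edges with dCas9-KRAB and Cr4 ran from 176 to 219 bp, across both groups. These edges and summits were measured after the levels had been seen, and the part of the lower pileup in the earlier right edge was not tested.

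**Figure D3:**
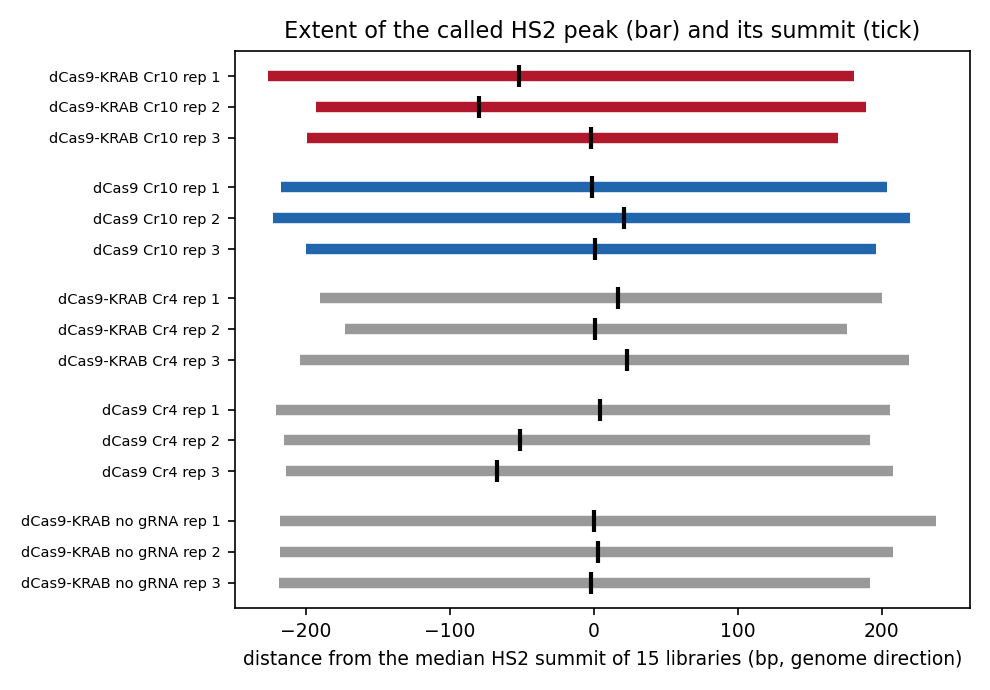
Extent of the called HS2 peak (bar) and its summit (tick) in each library, in bp from the median summit of the 15 libraries. The right edges lie at 181, 189 and 170 bp with dCas9-KRAB Cr10 and at 204, 220 and 196 bp with dCas9 Cr10.

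No other site of the locus control region separated the groups. At HS1 (hg19, chromosome 11, 5296783 to 5297378) the pileup was 59, 78 and 82 with dCas9-KRAB and 47, 41 and 145 with dCas9, a centred log2 difference of 0.29 (SE 0.24). At HS3, the neighbouring enhancer (5305792 to 5306310), it was 47, 83 and 80 against 69, 61 and 175, a difference of −0.26 (SE 0.21). HS4 (5309327 to 5309737) held 57, 84 and 86 against 50, 45 and 131, a difference of 0.30 (SE 0.24). HS5, the outermost site (5312466 to 5312801), held 31, 32 and 38 against 33, 25 and 79, a difference of −0.11 (SE 0.23). The groups overlapped at each of the 4 after centring, and limma's adjusted p was 1.00 for all. Separation was rare everywhere, at 2.13% (lower) and 2.42% (higher) of all shared regions, so its absence at these 4 sites is not particular to them.

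Replicate 2 of dCas9 was low at these 4 neighbours, at −0.89, −0.33, −0.76 and −1.58 for HS1, HS3, HS4 and HS5, while its HS2 stood at 0.36. Measured within each library, HS2 minus the mean of the 4 other sites was 0.48, −0.55 and −0.36 with dCas9-KRAB and 0.74, 1.25 and 0.33 with dCas9. HS2 was thus below the mean of the 4 sites in 2 of the 3 dCas9-KRAB libraries and in 0 of the 3 dCas9 libraries. The difference of −0.91 left the groups overlapping through replicate 1 of dCas9-KRAB and replicate 3 of dCas9 (exact permutation p = 0.2). Against HS3 alone the values were 0.48, −0.90 and −0.58 with dCas9-KRAB and 0.23, 0.69 and −0.13 with dCas9, a difference of −0.60 (exact permutation p = 0.3) with overlap.

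**Figure D4:**
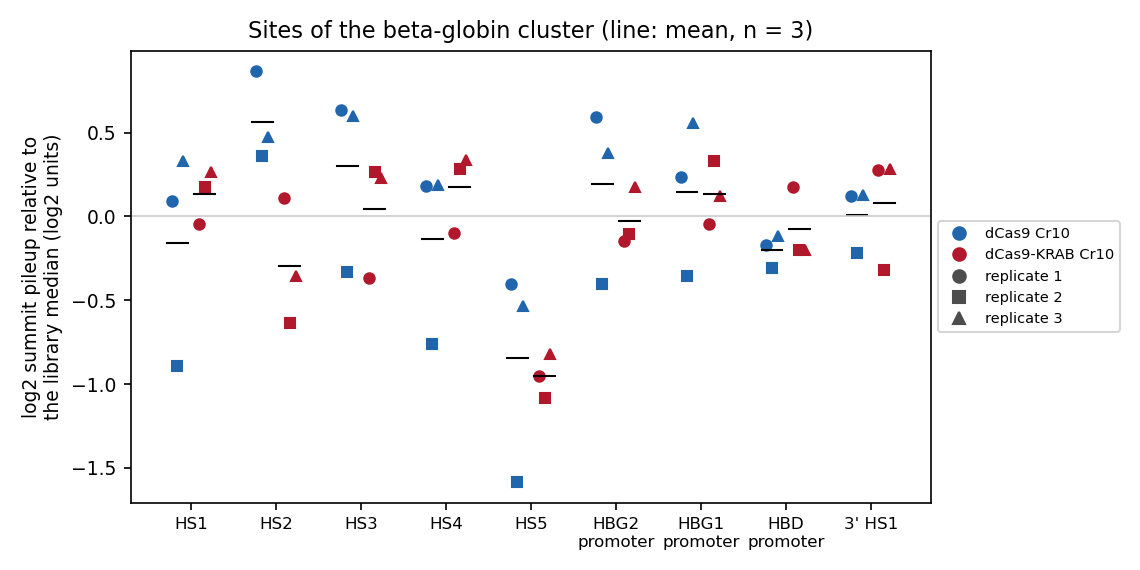
Log2 summit pileup relative to the library median (y, log2 units) at 9 sites of the beta-globin cluster, with dCas9 Cr10 in blue and dCas9-KRAB Cr10 in red (points are libraries, lines are means, n = 3). HS2 is the site where all 3 red points lie below all 3 blue points; dCas9 replicate 2 is the lowest of its group at each site shown.

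At the globin genes the peaks were similar in both groups. The promoter windows of the fetal genes HBG2 and HBG1 had centred log2 differences of −0.22 (SE 0.19) and −0.01 (SE 0.18), and fragments of these near-identical copies may be split between them. The window at HBE1 held a peak in 1 of the 6 lists, replicate 3 of dCas9 with a pileup of 52, which is the deepest library. The window at the adult gene HBB held none in the 6 lists. 3' HS1, a site at the far end of the cluster, gave 0.07 (SE 0.20). At the promoter of HBD, the minor adult gene, the pileup was 69, 60 and 59 with dCas9-KRAB and 39, 62 and 106 with dCas9, a difference of 0.12 (SE 0.15). The sequence of the 250 bases before the HBD start is shown as the promoter of this cluster that matched the RefSeq table, 1 of 7 globin promoters looked up (HBE1, HBG1, HBG2, HBZ, HBA1 and HBA2 did not match). It is given 5′ to 3′ on the minus strand of GRCh38.p14, chr11:5234484-5234733, a build other than the hg19 of the peaks. Capitals mark matches on either strand to CCAAT and to AGATAA, a form of the GATA motif; CACCC was searched too. Of 35116 promoters, 32.0% hold CCAAT, 9.17% AGATAA and 54.7% CACCC in the same 250 bases.
HBD: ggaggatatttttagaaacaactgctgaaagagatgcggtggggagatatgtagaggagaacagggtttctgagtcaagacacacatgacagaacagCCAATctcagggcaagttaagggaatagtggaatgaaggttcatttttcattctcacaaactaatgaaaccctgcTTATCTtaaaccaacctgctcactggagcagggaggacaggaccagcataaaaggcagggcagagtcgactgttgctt
A single CCAAT and a single match to the reverse complement of AGATAA were found, and no CACCC; a match is a description of the letters.

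None of the regions around HS2 separated the groups. The 4 other shared regions within 25 kb had differences from −0.26 to 0.30. The 7 regions between 25 kb and 100 kb ran from −0.22 to 0.12, with 5 lower and 2 higher. Of 17 regions between 100 kb and 1 Mb, 9 were lower and 8 higher, from −0.29 to 0.41. The groups were separate in 0 of these 28 regions. On the rest of chromosome 11 they were separate in 2.29% (lower) and 3.04% (higher) of 2137 regions, and no test was made against those shares.

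**Figure D5:**
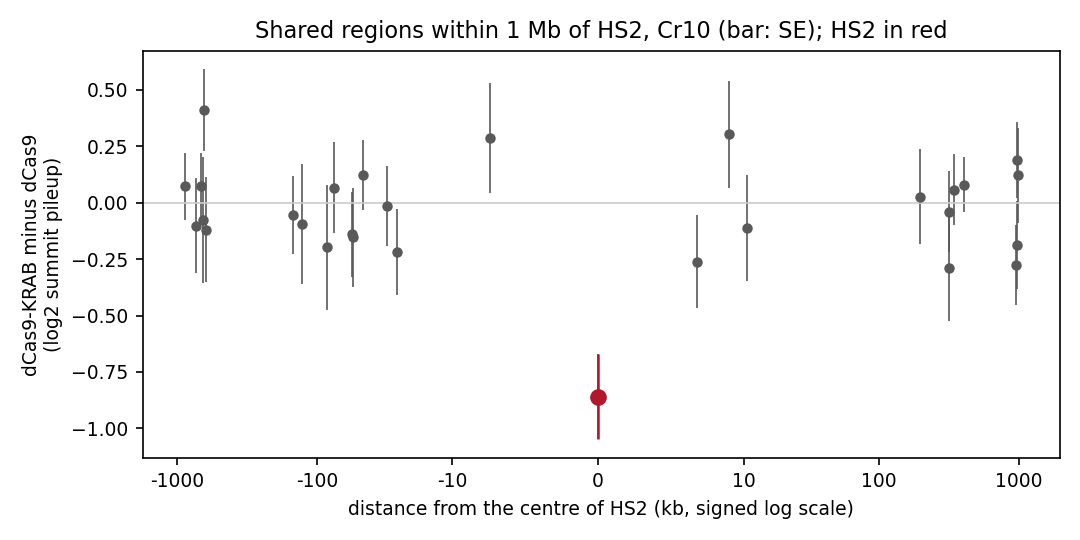
Difference in log2 summit pileup, dCas9-KRAB Cr10 minus dCas9 Cr10 (y, bars are SE), of the shared regions within 1 Mb of HS2 against the distance from its centre (x, kb, signed log scale). HS2, in red, lies at −0.86; the other 28 regions lie between −0.29 and 0.41.

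Windows at other genes gave small differences, and 0 of them passed limma's threshold, as did 0% of all shared regions. Of the 4 alpha-globin windows, 3 were higher and 1 lower. The enhancer HS-40 of that cluster held 134, 171 and 163 with dCas9-KRAB and 88, 166 and 236 with dCas9, a centred difference of 0.19 (SE 0.14) in which the groups did not overlap. A window among the red cell and heme genes was also higher without overlap, as were 2.42% of all shared regions. Such regions were most frequent in the strongest class of shared regions, at 348 of 7778. HBZ gave −0.08, HBA2 0.20 and HBA1 0.10 (SE 0.20, 0.18 and 0.18), the last pair being near-identical copies. The 9 windows of erythroid and hematopoietic factors had a median difference of 0.11, from LMO2 (−0.14) and GFI1B (−0.07) to GATA1 and NFE2 (0.22 each), beside 0.00 over all shared regions. Of 10 windows at genes of red cell function, survival and heme synthesis, 7 had a peak in all 15 lists and a median of 0.08. Among them the survival gene BCL2L1 gave 0.05, and the heme enzyme gene UROD (0.13) and the kinase gene PIM1 (0.21) were highest. For the housekeeping genes ACTB and GAPDH the differences were 0.08 and 0.22.

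Windows at genes of the KRAB co-repressor pathway, and at genes whose sequence a vector of this kind can carry, were also measured. TRIM28, the direct partner of KRAB, gave 0.10 (SE 0.18), SETDB1 −0.25 (SE 0.19), and the HP1 genes CBX1 and CBX5 gave −0.05 and 0.21. Over the 5 windows of this pathway the median was 0.05. The KRAB domain of such fusions usually comes from ZNF10, whose gene window had its strongest peak at 82, 139 and 133 with dCas9-KRAB and 95, 139 and 210 with dCas9, a difference of −0.14 (SE 0.21). The window at RNU6-1, a U6 gene, held a peak in 2 dCas9-KRAB lists and 1 dCas9 list. None of these windows separated dCas9-KRAB from dCas9 libraries, so they gave no check of which libraries carried KRAB.

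Across the genome the comparison asked for changes away from the target. Limma called 0 of 38888 regions by pileup and 0 of 62858 by rank at an adjusted p under 0.05. At an unadjusted p under 0.05 there were 504 (1.3%) by pileup, 268 lower (0.689%) and 236 higher (0.607%). By rank there were 1570 (2.5%), 875 lower (1.39%) and 695 higher (1.11%). If no region differed, a share near 0.05 of regions would be expected under that threshold, and both shares were smaller. The reason was not tested, and 0 called regions do not show that no region changed. The groups did not overlap by rank in 2.29% of regions on the lower and 2.38% on the higher side.

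The 5 regions of lowest p in each direction are named whether or not they passed, and all had a limma adjusted p of 1.00. After HS2, the lowest p by pileup belonged to a region on chromosome 14 (91124835 to 91125466), which was also first by rank. Its pileup was 27, 31 and 26 with dCas9-KRAB and 42, 56 and 76 with dCas9. On the centred scale these were −1.15, −1.13 and −1.35 against −0.07, −0.45 and −0.59, a difference of −0.84 (SE 0.20). The other 9 libraries lay between −0.88 and −0.30, above all 3 libraries with dCas9-KRAB and Cr10. By rank it stood at 46.9, 30.8 and 35.6 against 86.9, 74.9 and 62.7, a difference of −37.0 points (SE 7.16).

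The other regions lower by pileup were on chromosome 4 (185776459 to 185776987, −0.69), chromosome 1 (52126733 to 52127261, −0.70) and chromosome 3 (178816295 to 178816687, −0.69). At these 3 the dCas9-KRAB libraries reached into the range of the other 9. The largest increase was on chromosome 16 (10436895 to 10437454), where the pileup was 80, 68 and 86 with dCas9-KRAB and 32, 32 and 104 with dCas9, a difference of 0.84 (SE 0.24). There replicate 2 of dCas9, at −1.24, lay below the −0.80 to 0.29 of the other 9 libraries. Smaller increases were on chromosome 6 (34252599 to 34253035, 0.47), chromosome 9 (90289514 to 90290017, 0.60), chromosome 19 (6551873 to 6552438, 0.50) and chromosome 2 (178469178 to 178469523, 0.70), the last with overlapping groups.

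By rank, the regions lower with dCas9-KRAB after the one on chromosome 14 were on chromosome 1 (58981535 to 58981869, −32.5 points), chromosome 16 (58446212 to 58446514, −32.1), chromosome 2 (172273131 to 172273449, −22.1) and chromosome X (101975429 to 101975775, −19.5). Those higher were peaks that ranked low in the equal-length lists: chromosome 2 (86315131 to 86315355, 19.96), chromosome 21 (35360741 to 35361231, 17.9), chromosome 1 (21636800 to 21637097, 16.6), chromosome 14 (65710771 to 65711124, 25.4) and chromosome 12 (104391171 to 104391690, 19.4). The first of these had percentiles of 27.3, 8.77 and 23.9 with dCas9-KRAB and no peak in the equal-length lists of the other 12 libraries. It therefore entered the fit, which required a peak in 3 libraries, only through the group in which it is high, and its place by p supports nothing. Its deposited pileups were 30, 23 and 26, and 36 in replicate 3 of dCas9. The same limit holds for the regions on chromosomes 21 and 12. Outside dCas9-KRAB with Cr10, their equal-length peaks were in replicate 3 of dCas9 (percentiles 8.53 and 6.97) and in a single further library each (6.16 and 8.26). That is fewer than the fit required, so their places by p support nothing either.

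Presence and absence of peaks was counted over the 100552 regions with a peak in any of the 6 deposited lists. All 6 lists held 41669 of them (41.4%), and 18557 (18.5%) were in a single dCas9 list against 4116 (4.09%) in a single dCas9-KRAB list. In all 3 dCas9 lists and no dCas9-KRAB list were 185 regions (0.184%), and in all 3 dCas9-KRAB lists and no dCas9 list were 7 (0.00696%). In lists of equal length the counts were 87 and 67. When 1 of the 6 libraries was left out, so that fewer lists were required, the count of such regions in either direction together was 341 to 2306 in place of 192. Without dCas9 replicate 3, the longest list, 979 regions were in the dCas9-KRAB lists only and 232 in the dCas9 lists only, the opposite imbalance. Fewer dCas9 than dCas9-KRAB lists then had to agree, which itself moves these counts. The part of list length in the imbalance was not tested, and HS2 was in neither set.

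The 185 regions were weak, with a median pileup of 26 against 67 for regions in all 6 lists. That contrast is built in, since weak regions are the ones missed in some lists. For the 7933 regions in 3 of the 6 lists, mixed between the groups, the median was 29. The 9 libraries outside the comparison showed how often such regions were called. A peak at the 185 regions was called in 53.5% of region and list pairs for the libraries titled without a gRNA, in 55.9% for Cr4 under dCas9-KRAB, and in 61.6% for Cr4 under dCas9. For the 7933 mixed regions these shares were 50.4%, 53.96% and 59.1%. The strongest of the 185 lay on chromosome 6 (35704114 to 35704371), with pileups of 44, 69 and 102 in the dCas9 lists, and it was called in all 3 libraries titled without a gRNA. The next were on chromosome 16 (3011751 to 3012020), chromosome 1 (117112488 to 117112730), chromosome X (152992235 to 152992537) and chromosome 7 (563405 to 563697), with mean pileups of 65.7, 63.3, 61.7 and 59. The 7 regions in the dCas9-KRAB lists only had a peak in 57.1%, 57.1% and 81.0% of such pairs in the same 3 groups. The strongest was on chromosome 19 (51246444 to 51246687; 43, 33 and 31 with dCas9-KRAB). It was followed by a further region on chromosome 19 (74258 to 74513, mean 25), by chromosome 1 (171954059 to 171954337, 21), chromosome X (55934489 to 55934807, 18.3) and chromosome 19 (24187079 to 24187488, 17).

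The 3 remaining groups placed the HS2 values. The centred log2 pileup was 0.85 ± 0.34 (SD, n = 3) in the libraries titled without a gRNA. It was 0.57 ± 0.27 under dCas9 for Cr10 and 0.52 ± 0.23 for Cr4. Under dCas9-KRAB it was 0.17 ± 0.24 for Cr4 and −0.29 ± 0.38 for Cr10. Neighbours in this order overlapped. Replicates 2 and 3 of dCas9-KRAB with Cr10 lay below the lowest of the 9 outside libraries (0.03), and replicate 1 did not. The KRAB effect, dCas9-KRAB minus dCas9, was −0.35 with Cr4 (SE 0.19, unadjusted limma p 0.0746), the same sign as with Cr10. The difference between the gRNAs was −0.51 in log2 (SE 0.27, limma 95% interval −1.06 to 0.05, unadjusted p 0.0712), and limma's adjusted p over all regions was 1.00.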

How the data were processed

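CASAVA 1.3, BWA, bedtools and the build hg19 are named per the submitters' processing notes. Peak names carry a macs prefix. The sources used here do not state which version and threshold the caller had or how many fragments were sequenced. The fold over background, a ratio, and the −log10 p-value and q-value of each peak are the authors' values. The score column was deposited by the authors as 10 times the −log10 q-value and was not used. No scaling between libraries is recorded per the labels.

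The summit pileup k is the whole number that meets both columns through fold = (k + 1)/(λ + 1) and a Poisson p-value, and it did so within 0.01 in −log10 p for 100% of peaks. Regions are peaks on the autosomes and X merged on 1 bp of overlap. The pileup measure was log2(k + 1), centred per library over the 38888 regions in all 15 deposited lists. The rank measure was the percentile of the strongest peak in lists shortened to 53098 peaks (56.1% to 100% of a list), 0 for no peak, over 62858 regions with a peak in at least 3 libraries. Limma 3.58.1 in R 4.3.3 fitted all 15 libraries in 5 groups with a mean-variance trend, with Benjamini-Hochberg adjustment over all regions and a threshold of 0.05. The script was tested on simulated data. Single values were compared by two-sided exact permutation (Python 3.11.15, scipy 1.17.1).

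Named are HS2, the windows of the globin clusters and of the vector, the 2 lowest and 2 highest windows of each other list, and 5 regions per direction in each fit and among regions of 1 group only; regions on chromosome 8 were not named, and a few windows that this rule covers are not reported here. Windows were set at recalled hg19 positions; the edges and summit of HS2 were compared after the values had been seen. All p-values are two-sided. The members, lists and the pileup measure were chosen with earlier results of these data known. Regions were not assigned to genes, since no hg19 annotation was used here, and the gRNA and HS2 sequences are not shown. Alternatives covered list length, ranking column, merging, filters, centring, limma settings, the replicate block and leaving out each of the 6 libraries.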

Additional observations from a re-analysis of the deposited data

Results flagged for a closer look

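The KRAB effect on the HS2 rank was set against the same effect with the other gRNA. The difference dCas9-KRAB minus dCas9 was −43.9 percentile points with Cr10 and 2.18 with Cr4, a difference of −46.1 points (SE 17.1, limma 95% interval −82.4 to −9.78). It drew attention because limma's test of the difference itself gave an unadjusted p of 0.0162 at this site, while its adjusted p over all 62858 regions was 1.00. Leaving out 1 of the 6 Cr10 libraries gave −59.5 to −35.2. Without dCas9 Cr10 replicate 2 the difference was −37.9 and the unadjusted limma p 0.0517. No Cr4 library was left out, so the dependence on single Cr4 libraries was not tested. On the log2 pileup HS2 was lower with dCas9-KRAB for both gRNAs (differences of −0.86 with Cr10 and −0.35 with Cr4), and the difference between them was −0.51 (unadjusted limma p 0.0712).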

How the results depend on the processing

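HS2 was lower with dCas9-KRAB under every alternative run. Leaving out 1 of the 6 Cr10 libraries gave −57.3 to −33.0 percentile points and −1.06 to −0.69 in log2 pileup (limma adjusted p 0.30 to 1.00). Relative to the other sites of the locus control region it gave −1.22 to −0.67. For the difference between gRNAs it gave −59.5 to −35.2 points or −0.71 to −0.33 in log2. With the replicate number as a replicate block, HS2 had a difference of −0.86 and a limma adjusted p of 0.00929, and 1 region, HS2, was called by pileup against 0 without it. What the numbers stand for is not stated. The deviations of same-numbered libraries correlated at −0.07, 0.01 and 0.16 over shared regions, and those of different-numbered libraries at −0.36 to 0.26. The block lowered the SE at HS2 by pileup from 0.19 to 0.125. So few correlations, from the 6 libraries only, cannot decide whether the numbers mark a shared batch, and the blocked value is given here only. The block changed no other call at an adjusted p under 0.05. Leaving out 1 library gave 0 to 2 called regions by rank (2 without dCas9 Cr10 replicate 3, 1 without dCas9-KRAB Cr10 replicate 3) and 0 by pileup throughout. Regions present in 1 group only, 192 in all, numbered 341 to 2306 when 1 library was left out. The difference in list length ran from −14928 to 5887 peaks, in covered bases from −7.18 to 1.99 Mb, in median fold from −0.17 to 0.70 and in median width from −7.67 to −1.67 bp. The signs of the first 3 turned without dCas9 Cr10 replicate 3. The causes were not tested. The number of sequenced fragments is not given, so depth is known only through the implied background.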

Other observations

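The differences between dCas9-KRAB and dCas9 with Cr10 shifted with the strength of the region. In 5 classes of the 38888 shared regions, from the weakest to the strongest by mean pileup, the median log2 difference was −0.04, −0.02, −0.00, 0.01 and 0.04. The counts of regions wholly lower with dCas9-KRAB were 331, 283, 157, 55 and 1, and those wholly higher 62, 107, 148, 275 and 348. The highest pileup of a library ran only from 310 to 371 over the 6 lists, while the median background ran from 4.24 to 9.78. The part of depth in this shift was not tested.

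By chromosome the median difference ran from −0.04 on chromosome 18 (557 regions) to 0.05 on chromosome 19 (2604 regions).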
